A study of Mus musculus with 6 samples.

Results

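The genes described here are 42 genes of the G2 phase and of mitosis, named for their known function in cell division. The list was drawn up with earlier results of these data known. All 42 were among the 24341 genes of the deposited table, and all 42 passed the filter on low values, so no member was lost. They comprised the proliferation antigen Ki-67 and topoisomerase II alpha, the cyclins and phosphatases that act on the kinase CDK1, other mitotic kinases, spindle checkpoint kinases, the chromosomal passenger complex, centromere proteins, kinesins, spindle and cytokinesis proteins, genes of mitotic protein degradation, and the transcription factor Foxm1. RNA was sequenced from alveolar macrophages (AMs), the resident macrophages of the lung airspaces, which were taken by bronchoalveolar lavage (BAL) of naïve female C57BL/6 mice aged 6 to 10 weeks. One group carried intact Cd44 (CD44+/+) and the other lacked it throughout the body (CD44-/-), and no treatment was given to either. CD44 is a cell surface receptor for hyaluronan, and the comparison asks which transcripts differ between AMs that have it and AMs that lack it. Each genotype had 3 samples, each a pool of mice (pools of 4, 2 and 2 mice per genotype by the study's methods), so the spread between samples is a spread between pools of unequal size. The BAL cells were not sorted.

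A dividing cell makes its mitotic proteins late in the cycle. CDK1 with cyclin B starts mitosis, the spindle checkpoint delays the separation of chromosomes until all are attached to the spindle, the anaphase-promoting complex then marks cyclins for destruction, and the cell is pinched apart in cytokinesis. AMs are long-lived and maintain their number in the adult lung largely by dividing locally, so some of them are in the cell cycle at any time. In bulk RNA, a different number of dividing cells and a different amount of these transcripts in each dividing cell cannot be told apart.

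With all 6 samples the 42 genes had a median log2 fold change of 0.29 (CD44-/- over CD44+/+), beside 0.01 over all 10800 genes tested, and 41 of 42 had a log2 fold change above 0, beside 55.8% of all genes tested. The same 41 of 42 were counted after scaling by median ratios and after quantile normalization, where the share of all genes was 48.4% and 48.1%. No member passed the test, limma with adjustment by Benjamini-Hochberg across the genes tested, beside 0.111% of all genes (12 genes), and 21 members had an unadjusted p under 0.05 with a higher mean in CD44-/- AMs, beside 4.75% of all genes. The higher levels were found in CD44-/- replicates 2 and 3, whereas CD44-/- replicate 1 was near the CD44+/+ samples. Summed over the 42 genes, the 3 CD44+/+ samples were at 502, 502 and 497 FPKM, and the CD44-/- samples at 511 (replicate 1), 657 (replicate 2) and 658 FPKM (replicate 3). FPKM counts the fragments of a transcript per kilobase of its length, scaled to the fragments mapped in the sample, and values below are given in the order of replicates 1, 2 and 3. Fold changes were taken on the scale log2(FPKM + 0.1), which slightly understates changes of low genes.

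The knockout was seen in every sample. Cd44 was at 540, 535 and 527 FPKM in CD44+/+ AMs and at 54.7, 54.5 and 51.4 FPKM in CD44-/- AMs. The 12 AM markers, among them Siglecf, Marco and Pparg, summed to between 20997 and 25369 FPKM in every sample, and none was called different by limma. Of these markers 8 had a log2 fold change below 0, 3 were lower and 1 was higher without overlap in CD44-/- AMs (4.88% and 6.75% of all genes tested), and 1, Krt79, had an unadjusted p under 0.05, with a log2 fold change of -0.38. The defining markers of B cells were all under 1 FPKM on average, as were 6 of 7 T cell markers, and the remaining T cell marker, Cd2, was at 277 to 316 FPKM in all samples. Relative depth, read from the steps between low values, was between 0.814 and 1.05 of that of CD44+/+ replicate 1, with the lowest value in CD44-/- replicate 2. The number of reads was not used here, so absolute depth and counting error are unknown.

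**Figure D1:**
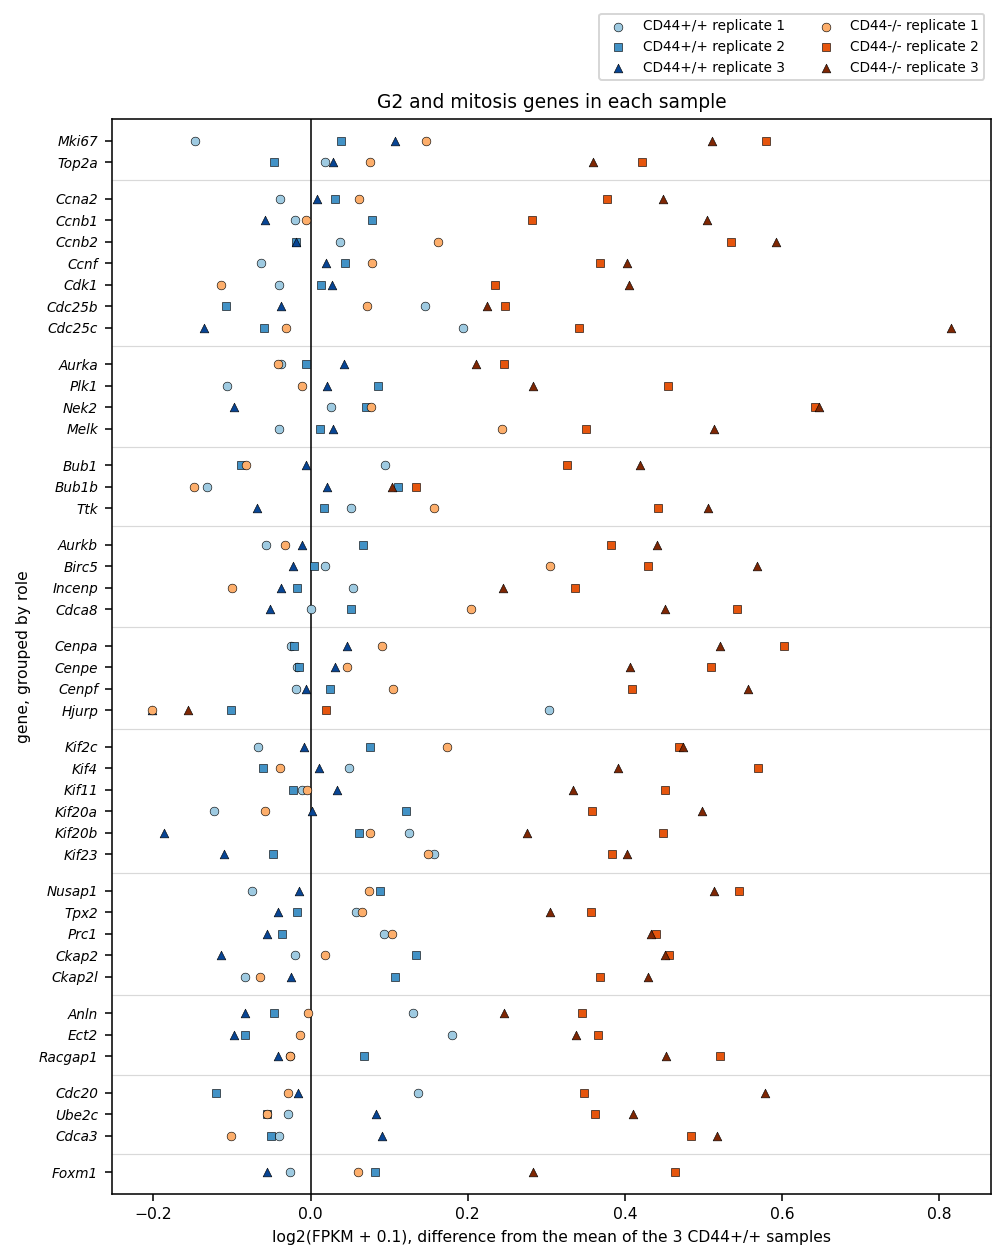
Level of each of the 42 genes in each of the 6 samples, as log2(FPKM + 0.1) minus the mean of the 3 CD44+/+ samples (x axis), with genes grouped by role (y axis). CD44-/- replicates 2 and 3 (dark orange square, brown triangle) lie to the right of all CD44+/+ samples for 40 genes, while CD44-/- replicate 1 (light orange circle) does so for 16.

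Promoters of genes of this kind often carry a cell cycle homology region (CHR), bound by the DREAM repressor complex in resting cells and by MuvB with B-Myb and FOXM1 in G2, together with CCAAT boxes bound by NF-Y. Promoter windows from 250 bases before to 50 bases after the annotated start were taken from RefSeq (GRCm38.p6) and were found for 35 of the 42 genes. The letters TTTGAA or TTCGAA, on either strand, were taken as the CHR motif, and CCAAT on either strand as the CCAAT box, and a base could count for both. A CHR motif was present in 29 of 35 windows (82.9%), beside 21.7% of the windows of all genes. Within 50 bases of the start it was present in 26 of 35 (74.3%), beside 6.12% of all genes. A CCAAT box was present in 29 of 35 (82.9%), beside 41.1% of all genes, and at least 2 were present in 19 (54.3%), beside 13.3%. The 8-letter motifs TTTCCCGC, TTTGGCGC, TTTCGCGC and TTTGCCGC, sites of the E2F factors that act before S phase, were found in 1 of 35 windows (2.86%), beside 2.60% of all genes. Each match is a description of these letters and does not show that a factor was bound.

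Sequences of 135 bases, from 110 bases before the start, are shown for 5 genes with the arrangement that most members had, and for Birc5, which lacked both motifs in this stretch. Capitals mark the CHR motif (TTTGAA, or TTCAAA on the other strand) and the CCAAT box (CCAAT, or ATTGG on the other strand). Each is written 5′ to 3′ on the strand of the gene. They lie at chr9:70421530-70421664 (Ccnb2, minus strand), chr5:30666776-30666910 (Cenpa, plus strand), chr10:69352888-69353022 (Cdk1, minus strand), chr11:99024165-99024299 (Top2a, minus strand), chr4:118437319-118437453 (Cdc20, minus strand) and chr11:117849127-117849261 (Birc5, plus strand).
Ccnb2: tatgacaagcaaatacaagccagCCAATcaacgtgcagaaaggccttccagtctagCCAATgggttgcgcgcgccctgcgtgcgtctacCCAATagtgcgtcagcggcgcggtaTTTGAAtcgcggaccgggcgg
Cenpa: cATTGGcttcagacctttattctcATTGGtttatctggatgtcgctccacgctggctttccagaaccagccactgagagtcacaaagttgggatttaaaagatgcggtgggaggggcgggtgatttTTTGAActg
Cdk1: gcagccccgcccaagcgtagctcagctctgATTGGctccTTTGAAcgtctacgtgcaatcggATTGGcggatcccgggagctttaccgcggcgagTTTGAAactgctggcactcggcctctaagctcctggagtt
Top2a: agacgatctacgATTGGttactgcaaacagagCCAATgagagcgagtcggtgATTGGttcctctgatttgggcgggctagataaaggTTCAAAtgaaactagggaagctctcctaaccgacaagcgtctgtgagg
Cdc20: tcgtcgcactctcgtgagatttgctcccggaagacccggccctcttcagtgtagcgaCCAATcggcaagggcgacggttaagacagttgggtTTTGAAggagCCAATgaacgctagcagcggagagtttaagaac
Birc5: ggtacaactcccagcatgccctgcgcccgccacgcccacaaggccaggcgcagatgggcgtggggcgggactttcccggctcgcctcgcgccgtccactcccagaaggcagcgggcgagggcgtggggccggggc
In Ccnb2 the CHR motif began 5 bases after the start and the 3 CCAAT boxes shown began 87, 54 and 21 bases before it. In Top2a the CHR motif shown began 23 bases before the start and was preceded by 3 CCAAT boxes in this stretch. In Cdk1 one of 2 CHR motifs lay between the CCAAT boxes. The 29 genes with a CHR motif in the window had a median log2 fold change of 0.29, with 28 above 0 (55.8% of all genes tested) and 10 without overlap and higher in CD44-/- AMs (6.75% of all genes tested). The 6 genes without one (Birc5, Ccnb1, Cenpe, Melk, Nek2 and Nusap1) had a median of 0.37, with 6 above 0 and 4 without overlap, beside the same shares of all genes. So the direction was seen on both sides of this division, and the difference between the medians was not tested.

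**Figure D2:**
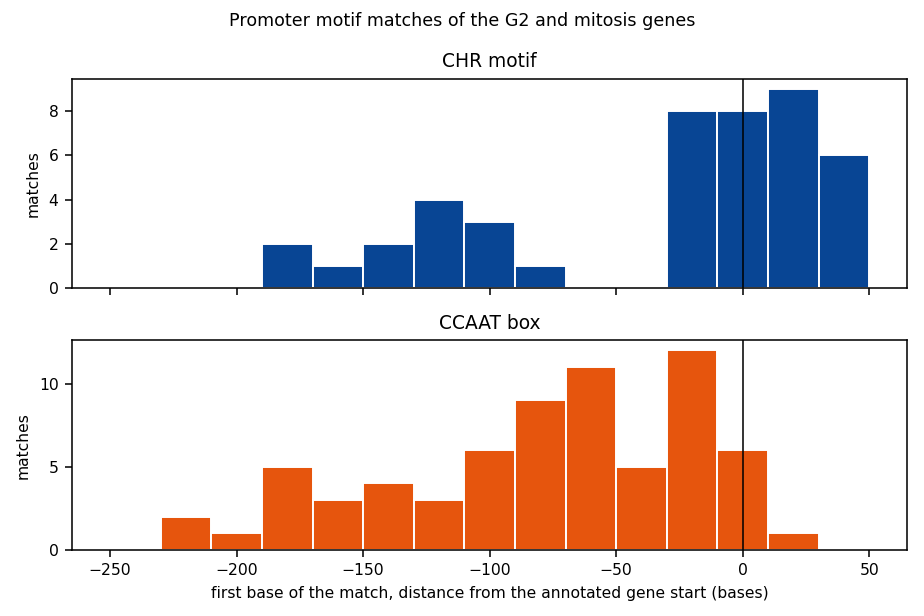
Number of matches (y axis) of the CHR motif (top) and the CCAAT box (bottom) by distance of their first base from the annotated gene start (x axis, in bases, negative before the start) in the promoter windows of 35 members. CHR motifs gather around the start, and CCAAT boxes mostly lie before it.

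Across the 42 genes, levels ran from 1.80 FPKM for Cdc25c to 40.6 FPKM for Bub1b (means over 6 samples), with a median of 11.8 FPKM, beside 12.2 FPKM over all genes tested. Of these genes, 24 had a mean of at least 10 FPKM and 7 had a mean under 5 FPKM. The set was therefore well within the range that was measured in each sample. The 42 genes made up between 0.101% and 0.135% of the summed FPKM of a sample.

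Mki67, which encodes the Ki-67 antigen that coats mitotic chromosomes, was at 18.1, 20.6 and 21.6 FPKM in CD44+/+ AMs and at 22.2, 30.0 and 28.6 FPKM in CD44-/- AMs. All 3 CD44-/- samples were above all CD44+/+ samples, the first of them by little, and the log2 fold change was 0.41 ± 0.12 (SE), with an adjusted p of 0.385 by limma. Top2a, the topoisomerase that untangles sister chromatids, was at 27.2, 26.0 and 27.4 FPKM in CD44+/+ AMs and at 28.3, 36.0 and 34.5 FPKM in CD44-/- AMs. Its groups did not overlap either, and its log2 fold change was 0.29 ± 0.09 (SE) with an adjusted p of 0.459 by limma.

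Of the 7 cyclins and regulators of CDK1, all had a log2 fold change above 0, between 0.18 (Cdk1) and 0.43 (Ccnb2), and 3 did not overlap between genotypes. Counts above 0 here and in the roles below stand beside 55.8% of all genes tested, and counts without overlap, all with higher values in CD44-/- AMs, beside 6.75%. Ccnb2, a B-type cyclin that partners with CDK1 (chr9:70407689-70421554, mm10), was at 21.0, 20.2 and 20.2 FPKM in CD44+/+ AMs and at 22.9, 29.7 and 30.9 FPKM in CD44-/- AMs. The means were 20.5 ± 0.462 and 27.8 ± 4.31 FPKM (SD, n = 3), and the wider spread in CD44-/- AMs came from replicate 1. The log2 fold change was 0.43 ± 0.11 (SE), with an adjusted p of 0.310 by limma. Ccna2, the cyclin of S and G2 phase, was at 17.8 to 18.7 FPKM in CD44+/+ AMs and at 19.1, 23.8 and 25.0 FPKM in CD44-/- AMs. Ccnf, whose protein is a substrate receptor of an SCF ubiquitin ligase, was at 5.12 to 5.52 FPKM and at 5.66, 6.94 and 7.11 FPKM, and thus also had no overlap. In the other 4 genes CD44-/- replicate 1 lay within or below the CD44+/+ samples. Ccnb1, the other B-type cyclin, was at 7.48, 8.01 and 7.28 FPKM in CD44+/+ AMs and at 7.55, 9.24 and 10.8 FPKM in CD44-/- AMs. Cdk1, the kinase itself, was at 10.4, 10.8 and 10.9 FPKM in CD44+/+ AMs and at 9.88, 12.6 and 14.2 FPKM in CD44-/- AMs, so that CD44-/- samples were both the lowest and the highest. Cdc25b and Cdc25c encode phosphatases that remove inhibitory phosphates from CDK1. Cdc25b was at 26.9 to 32.1 FPKM and 30.5 to 34.5 FPKM in the respective genotypes, and Cdc25c, the lowest member, at 1.38 to 1.76 FPKM and 1.49 to 2.76 FPKM.

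Among 4 other kinases of mitosis, Nek2 had the highest log2 fold change of all members. Nek2, a kinase needed for separation of the centrosomes, was at 4.31, 4.45 and 3.95 FPKM in CD44+/+ AMs and at 4.47, 6.66 and 6.68 FPKM in CD44-/- AMs. Only a narrow gap lay between CD44+/+ replicate 2 and CD44-/- replicate 1, while the other CD44-/- samples stood clear of it. The log2 fold change of 0.46 ± 0.15 (SE) had an adjusted p of 0.499 by limma. Melk, a kinase expressed in proliferating cells, was at 4.89 to 5.13 FPKM in CD44+/+ AMs and at 5.97, 6.44 and 7.22 FPKM in CD44-/- AMs. It was one of the few members in which CD44-/- replicate 1 stood clearly above the CD44+/+ samples, and its log2 fold change was 0.37 ± 0.09 (SE), with an adjusted p of 0.321 by limma. Plk1, which acts at centrosomes and kinetochores, was at 8.91 to 10.2 FPKM and at 9.53, 13.2 and 11.7 FPKM. Aurka, the centrosomal Aurora kinase, was at 6.38 to 6.75 FPKM and at 6.36, 7.78 and 7.59 FPKM, with the smallest log2 fold change of the 4 (0.14).

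The 3 spindle checkpoint kinases differed among themselves. Ttk (MPS1), at the head of the checkpoint, was at 2.46 to 2.68 FPKM in CD44+/+ AMs and at 2.89, 3.55 and 3.71 FPKM in CD44-/- AMs, with no overlap. Bub1 was at 4.58 to 5.21 FPKM and at 4.60, 6.14 and 6.56 FPKM, with CD44-/- replicate 1 inside the CD44+/+ range. Bub1b (BUBR1, chr2:118598211-118641592, mm10), which inhibits the anaphase-promoting complex until chromosomes are attached, was at 36.5, 43.2 and 40.6 FPKM in CD44+/+ AMs and at 36.1, 43.9 and 43.0 FPKM in CD44-/- AMs. It was the most abundant member, and its groups lay over each other, with a log2 fold change of 0.03 and a 95% interval of -0.18 to 0.24 from limma. The sign of this small difference turned, to -0.036 without CD44+/+ replicate 1, to -0.022 without CD44-/- replicate 2 and to -0.0070 without CD44-/- replicate 3.

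All 4 genes of the chromosomal passenger complex, which corrects wrong attachments of chromosomes and acts in cytokinesis, had a log2 fold change above 0. Birc5 (survivin, chr11:117849237-117855743, mm10), the subunit that binds centromeres, was at 21.4, 21.2 and 20.8 FPKM in CD44+/+ AMs and at 26.1, 28.4 and 31.3 FPKM in CD44-/- AMs. All CD44-/- samples were clearly above all CD44+/+ samples, replicate 1 included, and the means were 21.1 ± 0.304 and 28.6 ± 2.63 FPKM (SD, n = 3). Its log2 fold change of 0.43 ± 0.07 (SE, 95% interval 0.27 to 0.60) had the lowest adjusted p of the 42 genes, 0.114 by limma. Cdca8 (borealin) was at 10.7 to 11.5 FPKM in CD44+/+ AMs and at 12.8, 16.2 and 15.2 FPKM in CD44-/- AMs, with an adjusted p of 0.266 by limma. These groups did not overlap either. Aurkb, the kinase of the complex, was at 12.3 to 13.4 FPKM and at 12.5, 16.7 and 17.4 FPKM, and Incenp, its scaffold, at 21.2 to 22.6 FPKM and at 20.3, 27.5 and 25.8 FPKM. For both, replicate 1 of CD44-/- AMs was not above the CD44+/+ samples.

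**Figure D3:**
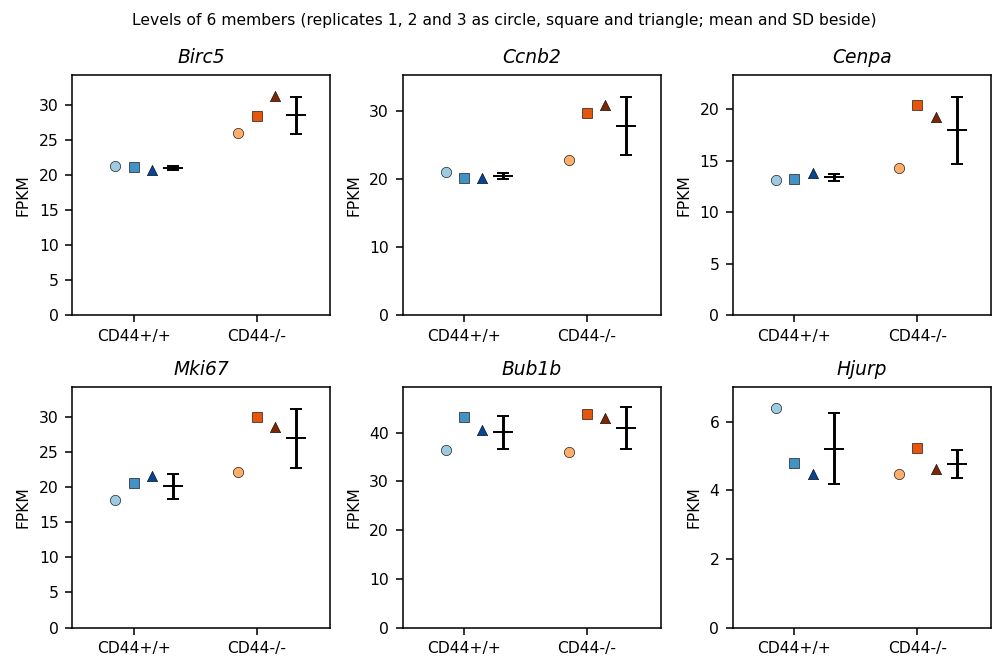
FPKM (y axis, from 0) of Birc5, Ccnb2, Cenpa, Mki67, Bub1b and Hjurp in each sample by genotype (x axis), with the mean and SD of the 3 samples beside the points. Birc5 was at 20.8 to 21.4 FPKM in CD44+/+ AMs and 26.1 to 31.3 FPKM in CD44-/- AMs, whereas the genotypes overlapped for Bub1b and Hjurp.

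Of the 4 centromere proteins, 3 did not overlap between genotypes, beside 6.75% of all genes tested. Cenpa, the histone H3 variant that marks centromeres (chr5:30666886-30674837, mm10), was at 13.1, 13.2 and 13.8 FPKM in CD44+/+ AMs and at 14.3, 20.4 and 19.2 FPKM in CD44-/- AMs. The adjusted p was 0.427 by limma, at a log2 fold change of 0.40 ± 0.12 (SE). Cenpe, a kinetochore motor, was at 4.82 to 4.99 FPKM and at 5.04, 6.99 and 6.50 FPKM, and Cenpf, a large kinetochore protein, at 3.14 to 3.24 FPKM and at 3.43, 4.26 and 4.73 FPKM. Hjurp (chr1:88227020-88277579, mm10), the chaperone that places CENP-A at centromeres, was the only member with a log2 fold change below 0. It was at 6.39, 4.80 and 4.47 FPKM in CD44+/+ AMs and at 4.47, 5.23 and 4.62 FPKM in CD44-/- AMs. The highest of these values was that of CD44+/+ replicate 1, and the other 5 samples were between 4.47 and 5.23 FPKM. The log2 fold change was -0.11, with a 95% interval of -0.43 to 0.20 from limma, and it was 0.039 without CD44+/+ replicate 1.

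The 6 mitotic kinesins had log2 fold changes between 0.26 and 0.37. Kif2c, which depolymerises microtubules at kinetochores, was at 4.92, 5.44 and 5.13 FPKM in CD44+/+ AMs and at 5.84, 7.18 and 7.21 FPKM in CD44-/- AMs. It was the only kinesin without overlap between genotypes, with an adjusted p of 0.369 by limma. Kif11 (EG5), which pushes spindle poles apart, was at 9.19 to 9.56 FPKM and at 9.31, 12.8 and 11.8 FPKM. Kif23, a subunit of centralspindlin at the spindle midzone, was at 15.6 to 18.8 FPKM and at 18.7, 22.0 and 22.3 FPKM. In both of these genes CD44-/- replicate 1 lay inside the CD44+/+ range. The same was true of Kif4, a motor on chromosome arms, of Kif20a, which acts in cytokinesis, and of Kif20b. Kif4 was at 3.85 to 4.16 FPKM in CD44+/+ AMs and at 3.91, 6.01 and 5.30 FPKM in CD44-/- AMs, and Kif20a at 10.0 to 11.9 FPKM and at 10.5, 14.0 and 15.5 FPKM. Kif20b was the lowest of the kinesins, at 3.27 to 4.08 FPKM and at 3.94, 5.13 and 4.54 FPKM.

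The 5 spindle and microtubule proteins had log2 fold changes between 0.24 and 0.38. Prc1, which bundles microtubules of the central spindle, was at 16.2, 14.8 and 14.6 FPKM in CD44+/+ AMs and at 16.4, 20.7 and 20.6 FPKM in CD44-/- AMs. Tpx2, which activates Aurora A on the spindle, was at 11.2 to 12.0 FPKM and at 12.1, 14.8 and 14.3 FPKM. The groups of both were apart, in each case by a narrow gap below CD44-/- replicate 1. Nusap1, a microtubule-binding protein, was at 10.0 to 11.2 FPKM and at 11.1, 15.5 and 15.1 FPKM. Ckap2 was at 4.07 to 4.85 FPKM and at 4.47, 6.09 and 6.07 FPKM, and Ckap2l at 8.24 to 9.42 FPKM and at 8.35, 11.3 and 11.8 FPKM. In these 3 genes CD44-/- replicate 1 was within the CD44+/+ range.

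Of the genes of cytokinesis, none was without overlap. Racgap1, which forms centralspindlin with Kif23, was at 15.6 to 16.9 FPKM in CD44+/+ AMs and at 15.8, 23.1 and 22.1 FPKM in CD44-/- AMs. Anln (anillin), a scaffold of the contractile ring, was at 15.5 to 18.0 FPKM and at 16.4, 20.9 and 19.5 FPKM, and Ect2, the exchange factor that activates RHOA in the cleavage plane, at 5.84 to 7.10 FPKM and at 6.19, 8.08 and 7.93 FPKM. None of the genes of mitotic protein degradation was without overlap either. Cdc20, the activator of the anaphase-promoting complex, was at 9.94 to 11.9 FPKM and at 10.6, 13.8 and 16.2 FPKM. Ube2c, its ubiquitin-conjugating enzyme, was at 21.7 to 23.9 FPKM and at 21.7, 29.0 and 30.0 FPKM. Cdca3 was at 14.4 to 15.9 FPKM and at 13.9, 20.9 and 21.4 FPKM, so that CD44-/- replicate 1 was the lowest sample and the other CD44-/- samples the highest. Foxm1, the transcription factor that activates many G2 genes, was at 5.43 to 5.98 FPKM and at 5.89, 7.82 and 6.89 FPKM, again with CD44-/- replicate 1 inside the CD44+/+ range.

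Of the members with an unadjusted p under 0.05 (limma), 21 had a higher mean in CD44-/- AMs and 0 a lower mean, where 2.94% of all genes tested had such a p and a lower mean. With the replicate number as a block, 28 had an unadjusted p under 0.05 and a higher mean, beside 6.05% of all genes, and 0 a lower mean, beside 3.67%. The count with a higher mean was 10 without CD44-/- replicate 2, beside 3.12% of all genes, and 10 without CD44-/- replicate 3, beside 3.34%. All 3 CD44-/- samples were above all 3 CD44+/+ samples for 16 members, beside 6.75% of all genes tested, and the reverse was the case for 0 members, beside 4.88%. After scaling of the samples by median ratios, 10 members were without overlap, beside 6.43% of all genes. An exact two-sided permutation test of a single gene cannot go below p = 0.1 with 3 against 3 samples. The adjusted p of the 42 genes ranged from 0.114 to 0.986 by limma, and with the replicate block the lowest was 0.143, so that 0 members were called, beside 0.0833% of all genes.

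**Figure D4:**
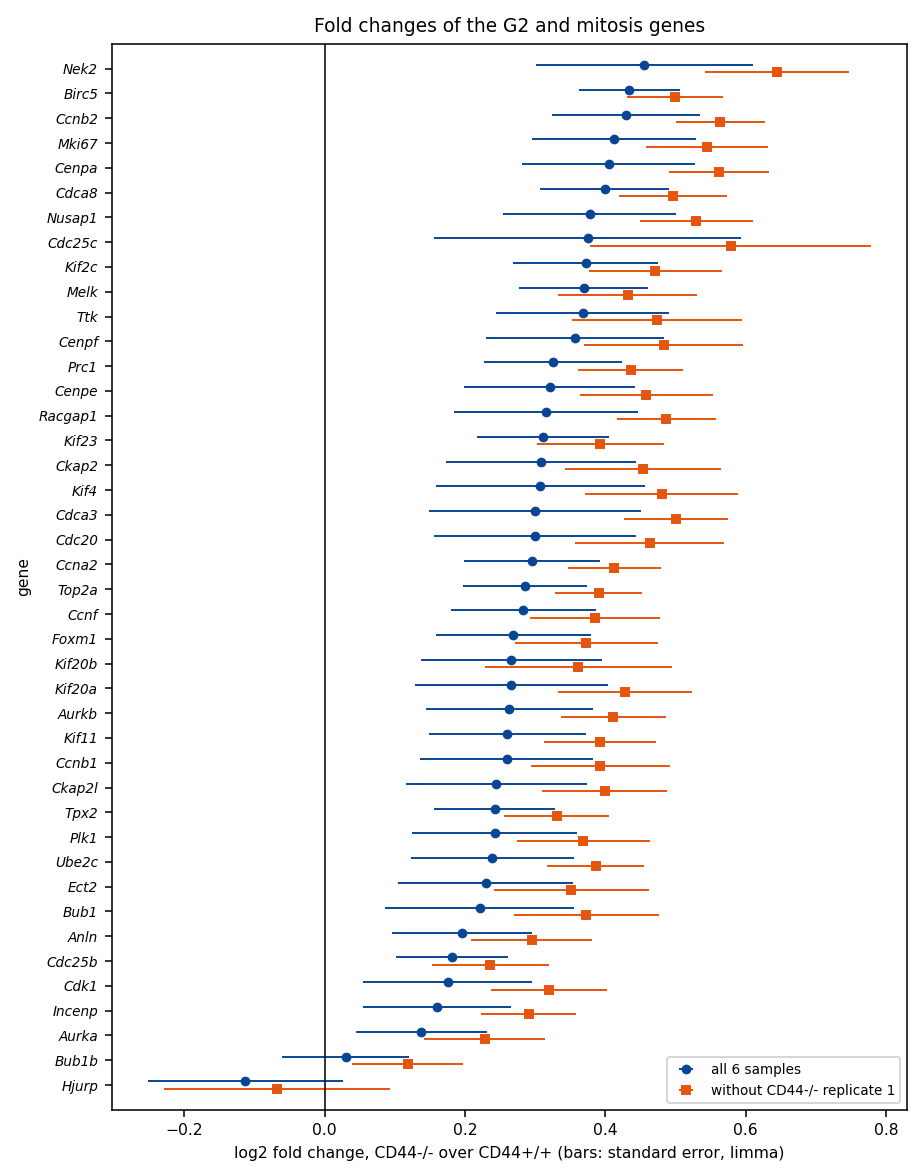
Log2 fold change of each member, CD44-/- over CD44+/+ (x axis; bars, standard error from limma), for all 6 samples (circles) and without CD44-/- replicate 1 (squares), ordered by the value for all samples (y axis). The values run from -0.11 (Hjurp) to 0.46 (Nek2) with all samples, and the median moves from 0.29 to 0.41 without that sample.

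CD44-/- replicate 1 was the lowest of the 3 CD44-/- samples for 42 of 42 members, beside 26.9% of all genes tested. It was above every CD44+/+ sample for 16 members (38.1%), beside 28.2% of all genes tested, within their range for 21 and below all of them for 5. By contrast, CD44-/- replicate 2 was above every CD44+/+ sample for 41 members and CD44-/- replicate 3 for 40, beside 25.8% and 22.2% of all genes tested. The median difference of the members from the CD44+/+ mean was -0.02, 0.01 and -0.02 for CD44+/+ AMs, and for CD44-/- AMs it was 0.03, 0.40 and 0.43, on the log2 scale. Over all genes tested the same medians were between -0.04 and 0.05 in all 6 samples. By these medians, the 42 genes as a set thus differed between samples mostly within the CD44-/- group. Hjurp did not follow, as its highest sample was CD44+/+ replicate 1. The log2 SD was larger in CD44-/- than in CD44+/+ AMs for 40 of 42 members, beside 43.2% of all genes tested. The median SD of the members was 0.07 in CD44+/+ and 0.23 in CD44-/- AMs, beside 0.10 and 0.09 over all genes.

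Leaving out any other single sample called no member (limma, adjusted p under 0.05). CD44-/- replicate 1 was the lowest of its group for every member, so leaving it out raises their fold changes by construction. The values without it are therefore a description only. Without it, 3 members passed the test, beside 0.204% of all genes tested (22 genes). The log2 fold change of Ccnb2 was then 0.56 ± 0.06 (SE), with an adjusted p of 0.0216 by limma. That of Cenpa was 0.56 ± 0.07 (SE), with an adjusted p of 0.0331, and that of Birc5 was 0.50 ± 0.07 (SE), with an adjusted p of 0.0481. In this comparison of 2 CD44-/- with 3 CD44+/+ samples, 40 members had an unadjusted p under 0.05 and a higher mean in CD44-/- AMs, beside 5.13% of all genes, and 0 a lower mean, beside 3.38%. The log2 fold change was above 0 for 41 members, beside 51.0% of all genes, and 40 had no overlap, beside 12.4%. The labels of the samples do not set replicate 1 apart from the other CD44-/- samples and do not give the number of mice in each pool. The study's methods name 4, 2 and 2 mice for the 3 samples respectively but do not give the samples by replicate number, so replicate 1 may have been the larger pool, and the part of pool size was not tested. Which of them is the more typical of the genotype cannot be told from 3 pools.

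Genes with neighbouring functions that are not among the 42 were read from the same test, and none passed it. Counts at an unadjusted p under 0.05 in the following lists are all of genes with a higher mean in CD44-/- AMs and are to be read beside 4.75% of all genes tested, and counts above 0 beside 55.8%. All 18 other spindle and cytokinesis genes had a log2 fold change above 0, with a median of 0.32, and 11 had an unadjusted p under 0.05 (Kif15, Kif18b, Kif22, Kifc1, Aspm, Hmmr, Tacc3, Gtse1, Spag5, Shcbp1 and Cep55, with log2 fold changes between 0.28 and 0.43). Tacc3, a spindle protein stabilised by Aurora A, was at 10.6, 11.1 and 10.3 FPKM in CD44+/+ AMs and at 13.0, 14.2 and 13.6 FPKM in CD44-/- AMs. In this gene CD44-/- replicate 1 lay with the other CD44-/- samples, and the adjusted p was 0.158 by limma. Ckap5, a microtubule polymerase and the most abundant of the list, was at 19.7 to 19.9 FPKM and at 20.1, 22.7 and 22.2 FPKM. The 18 genes of the outer kinetochore and checkpoint had a median of 0.17, with 18 above 0 and 5 at an unadjusted p under 0.05 (Mad1l1, Nuf2, Spc24, Spc25 and Casc5, with log2 fold changes between 0.17 and 0.43). Nuf2, of the NDC80 complex that holds microtubules, was at 6.99 to 7.63 FPKM and at 8.05, 10.2 and 11.3 FPKM, while the 2 most abundant genes of this list, Bub3 (40.3 to 46.5 FPKM) and Zwint (28.1 to 33.0 FPKM), overlapped between genotypes. The 14 genes of condensin and cohesin had a median of 0.18, with 13 above 0 and 5 at an unadjusted p under 0.05. Those 5 were the condensin genes Smc2, Smc4, Ncapd2 and Ncapg, with log2 fold changes between 0.23 and 0.39, and Cdca5 (sororin), which protects cohesin and was at 5.43 to 5.66 FPKM in CD44+/+ AMs and at 6.60, 8.27 and 8.58 FPKM in CD44-/- AMs. The most abundant of the list were the cohesin subunit Rad21, with overlapping groups at 50.5 to 54.9 FPKM and 53.7 to 59.9 FPKM, and Smc4, without overlap at 35.7 to 42.3 FPKM and 43.6 to 49.2 FPKM.

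Other lists had smaller medians. The 17 genes of the anaphase-promoting complex and its regulators had a median log2 fold change of 0.03, with 12 above 0 and none at an unadjusted p under 0.05. Their most abundant genes, Anapc13 and Anapc5, were at 71.6 to 104 FPKM and 62.2 to 70.4 FPKM, and overlapped between genotypes. The 18 transcription regulators of the cell cycle had a median of 0.09, with 15 above 0 and 2 at an unadjusted p under 0.05 (beside 4.75% of all genes tested), which were the repressors E2f7 and E2f8 (log2 fold changes 0.40 and 0.31). Rbl1 and E2f1, the most abundant of them, were at 26.6 to 30.6 FPKM and 22.7 to 26.4 FPKM over all samples, with overlap. The 24 genes of DNA replication had a median of 0.13, with 19 above 0, 4 at an unadjusted p under 0.05 (Mcm10, Rrm2, Cdc6 and Clspn, with log2 fold changes between 0.30 and 0.37) and 1 without overlap, beside 4.75% and 6.75% of all genes tested. Pcna, the sliding clamp of DNA polymerases, was at 160 to 168 FPKM in CD44+/+ AMs and at 155, 172 and 179 FPKM in CD44-/- AMs, and Mcm6, a subunit of the replicative helicase, at 43.1 to 44.5 FPKM and at 41.8, 46.2 and 45.5 FPKM. Per sample, the median difference of the replication genes from the CD44+/+ mean was -0.02, 0.03 and -0.03 in CD44+/+ AMs and -0.05, 0.23 and 0.16 in CD44-/- AMs on the log2 scale. The same CD44-/- samples were thus the higher ones in both lists. Of the promoter windows of the replication genes, 3 of 19 (15.8%) held a CHR motif, beside 21.7% of all genes. One of the E2F motifs was in 9 of 19 (47.4%), beside 2.60%, and a CCAAT box in 14 of 19 (73.7%), beside 41.1%. The following CHR counts also stand beside 21.7% of all genes. A CHR motif was found in 12 of 16 windows (75.0%) of the other spindle and cytokinesis genes, 7 of 11 (63.6%) of condensin and cohesin and 6 of 12 of the outer kinetochore and checkpoint. It was found in 6 of 14 (42.9%) of the transcription regulators, 4 of 16 (25.0%) of the anaphase-promoting complex and 1 of 12 (8.33%) of the G1 cyclins, kinases and CDK inhibitors. The differences between lists were not tested.

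**Figure D5:**
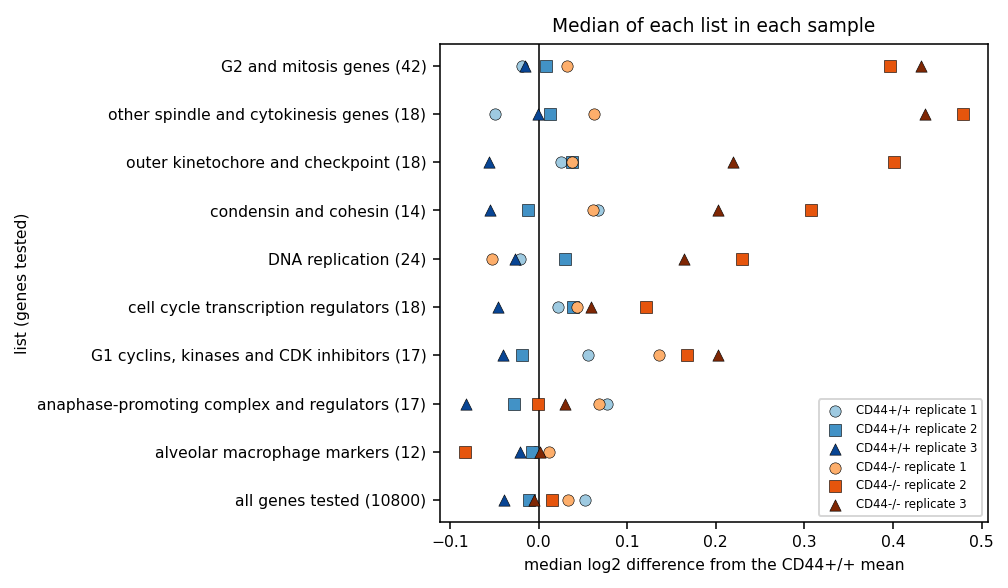
Median log2 difference from the CD44+/+ mean (x axis) of each gene list in each of the 6 samples (y axis, number of genes tested in parentheses). CD44-/- replicates 2 and 3 lie above the other 4 samples for the 42 G2 and mitosis genes (0.40 and 0.43) and the other spindle and cytokinesis genes. They also do so for the outer kinetochore (0.40 and 0.22), condensin and cohesin (0.31 and 0.20) and DNA replication (0.23 and 0.16). By smaller gaps, the same holds for the cell cycle transcription regulators (0.12 and 0.06) and the G1 cyclins, kinases and CDK inhibitors (0.17 and 0.20). It does not hold for the anaphase-promoting complex, the alveolar macrophage markers or all genes tested.

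Markers of other cells of the lavage were read beside these values. The summed monocyte markers were 6.03, 5.89 and 5.25 FPKM in CD44+/+ AMs and 5.08, 6.50 and 6.60 FPKM in CD44-/- AMs, of which Ccr2 made up most (4.31 to 4.79 FPKM, and 4.43, 5.66 and 5.67 FPKM). The other 3 of 4 monocyte markers were under 1 FPKM on average. Ccr2 thus followed the order of the members among the CD44-/- samples, and its part in the result was not tested. Erythroid markers summed to 14.7, 124 and 30.1 FPKM in CD44+/+ AMs and 18.8, 336 and 17.5 FPKM in CD44-/- AMs, highest in CD44-/- replicate 2. Alveolar type 2 markers summed to 47.0, 35.9 and 40.9 FPKM and to 58.1, 43.8 and 111 FPKM, highest in CD44-/- replicate 3, and of these Sftpc and Sftpb had an unadjusted p under 0.05 (log2 fold changes 1.44 and 1.24). Each of these was high in only one of the CD44-/- samples in which the members were high. Airway secretory markers summed to 842, 1401 and 936 FPKM and to 1134, 770 and 652 FPKM, lowest in the same CD44-/- samples. Neutrophil markers, of which Ngp was at 0, summed to 29.6, 76.8 and 61.7 FPKM and to 41.3, 48.9 and 45.8 FPKM, and of the 4 tested, 3 had a log2 fold change below 0 (S100a8, S100a9 and Retnlg, -0.08 to -1.30), while Csf3r was at 0.33 with an unadjusted p under 0.05. Dendritic cell markers summed to 5.29, 3.06 and 6.45 FPKM in CD44+/+ AMs and to 9.78, 4.74 and 4.28 FPKM in CD44-/- AMs. They were thus highest in CD44-/- replicate 1, where Ccr7 made up most (7.01 FPKM), and 5 of 6 were under 1 FPKM on average. The part of these cells in the result was not tested.

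The members lay on 17 chromosomes. Cd44 itself is on chromosome 2 (chr2:102811142-102901665, mm10), where 8 members are found (Bub1b, Nusap1, Bub1, Ckap2l, Cdc25b, Tpx2, Ube2c and Aurka), the nearest 15.7 Mb away. Their median log2 fold change was 0.23, beside 0.30 for the 34 other members. Exons of 9 members (Ccna2, Cdc25c, Cdca8, Foxm1, Kif4, Kif20a, Nusap1, Prc1 and Ube2c) share at least 100 bases with another protein-coding gene in the GENCODE annotation (vM21). Kif20a does so with Cdc23 (1271 bases) and Prc1 with Rccd1 (911 bases), both on the opposite strand. Foxm1 shares 144 bases with Tex52 on the same strand, where strand cannot part the reads. The libraries were made with a stranded kit, but whether the authors' counting used strand is not given in the sources used here, so reads of such pairs may have been shared and the values of these 9 genes are less certain. Birc5, Ccnb2, Cenpa and Mki67 are not among them.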

How the data were processed

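RNA of AMs was measured in 3 CD44+/+ and 3 CD44-/- samples, grouped by the genotype in their labels. The authors aligned reads to mm10 with STAR and deposited Cufflinks FPKM values for 24341 genes, which are already normalised for depth and transcript length, so no count model was used and counting error is not given. Columns of the authors' own comparison (means, fold changes, p-values and q-values of Cuffdiff) were not used. The columns of names and positions in that file are in another order than the values, so positions were looked up by gene name. Rapgef6, which lacked a value, was left out, and 101 identifiers with several gene names were kept as single genes.

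The 10800 genes whose mean over the 6 samples reached 0.5 FPKM were compared on log2(FPKM + 0.1) in R 4.3.3 with limma 3.58.1, by a two-sided test with an intensity trend and no covariates, and p-values were adjusted by Benjamini-Hochberg across these genes. A gene was called at an adjusted p under 0.05. The procedure was tested on simulated data whose changes were larger than those of the members. That test does not show whether changes of the size seen here would be called. The members, the other lists and the genes named were chosen with earlier results of these data known. All members are named, along with genes of the pathway lists that had an unadjusted p under 0.05 or were the 2 most abundant of their list, and marker lists are given by their sums and counts. The sources do not say whether same-numbered pools were collected together. Their deviations from the group means had correlations of 0.212, 0.132 and 0.211 across genes, so the replicate number in the titles was used as a block in an alternative fit. P-values set the difference between genotypes against the spread between pools, moderated across genes, with pools of unequal size weighted equally. Other alternatives were to leave out each sample in turn, to scale samples by median ratios or quantiles, to drop the trend or use robust eBayes, to add 1 or 0.01 before taking logs, and to raise the filter to 1 FPKM or remove it. Promoter windows (RefSeq, GRCm38.p6) were matched by symbol.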

Additional observations from a re-analysis of the deposited data

How the results depend on the processing

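With 3 pools per genotype, unknown read numbers and 1 CD44-/- pool that differed from the others, small differences of single members could not be resolved. The count of genes called over the whole table was 12, was 7 without a filter on low values, and ranged from 6 to 36 when each sample was left out in turn. The count of members called was 0 under the 8 alternatives that kept all samples without a block and 0 with the replicate block (9 genes called in all), and ranged from 0 to 3 when samples were left out. The 3 were found without CD44-/- replicate 1, which was the lowest of its group for every member. The count of members at an unadjusted p under 0.05 was 21, and was 28 with the replicate block. Of all genes tested, 4.75% and 6.05% had such a p with a higher mean in CD44-/- AMs. It ranged from 10 (without CD44-/- replicate 2 or 3, beside 3.12% and 3.34%) to 40 (without CD44-/- replicate 1, beside 5.13%). The count of members without overlap was 16, beside 6.75% of all genes with higher values in CD44-/- AMs. It was 10 with median-ratio scaling, beside 6.43%. When samples were left out it ranged from 16 to 40, the latter without CD44-/- replicate 1, beside 12.4%. The median log2 fold change was between 0.26 and 0.29 with all samples and between 0.22 and 0.41 when samples were left out. When samples were left out, the log2 fold change of Bub1b ranged from -0.036 to 0.12 and was below 0 without CD44+/+ replicate 1 (-0.036), CD44-/- replicate 2 (-0.022) or CD44-/- replicate 3 (-0.0070), and that of Hjurp ranged from -0.21 to 0.039 and was above 0 without CD44+/+ replicate 1. The other 40 members kept their sign under every alternative run. The replicate block changed no call of a member. The cause of these shifts was not tested.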

Other observations

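Of 18 cyclins, kinases and CDK inhibitors of the G1 phase and of CDK control, 17 passed the filter on low values. They had a median log2 fold change of 0.16, with 13 above 0 and 4 below, and none passed the test (limma, adjusted p under 0.05). Genes of this list without overlap were found in both directions, 8 with higher and 2 with lower values in CD44-/- AMs, beside 6.75% and 4.88% of all genes tested, and 6 and 2 had an unadjusted p under 0.05, beside 4.75% and 2.94%. The median difference from the CD44+/+ mean was 0.14, 0.17 and 0.20 on the log2 scale in CD44-/- replicates 1, 2 and 3. Cdkn1a (p21), an inhibitor of CDKs, was at 75.6, 64.9 and 69.6 FPKM in CD44+/+ AMs and at 90.1, 88.1 and 88.8 FPKM in CD44-/- AMs, with a log2 fold change of 0.35 ± 0.06 (SE) and an adjusted p of 0.126. Ccne1, the cyclin that drives entry into S phase with CDK2, was at 3.67, 3.58 and 3.34 FPKM and at 4.59, 5.88 and 6.08 FPKM, with a log2 fold change of 0.62 ± 0.12 (SE) and an adjusted p of 0.162. Ccne2 was at 3.96 to 5.31 FPKM and at 5.80, 7.30 and 7.83 FPKM. Cdkn2a, which encodes the inhibitor p16, was low, at 0.457, 0.609 and 0.887 FPKM and at 0.991, 1.68 and 1.82 FPKM. The inhibitors Cdkn2c and Cdkn2d were at 7.55 to 7.93 FPKM and 8.53 to 10.3 FPKM in CD44+/+ AMs, and at 8.48 to 10.3 FPKM and 10.7 to 11.8 FPKM in CD44-/- AMs.

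The 2 genes of this list that were lower in CD44-/- AMs without overlap act together at the start of the cycle. Ccnd2, a D-type cyclin, was at 63.9, 71.2 and 79.5 FPKM in CD44+/+ AMs and at 60.7, 52.7 and 46.8 FPKM in CD44-/- AMs, with a log2 fold change of -0.42 ± 0.11 (SE) and an adjusted p of 0.325. Its partner Cdk6 was at 25.7, 23.1 and 21.6 FPKM and at 20.0, 20.8 and 17.6 FPKM, with an adjusted p of 0.476. Ccnd3, of the same step, overlapped between genotypes, at 50.9 to 68.3 FPKM in CD44+/+ AMs and 60.9 to 68.6 FPKM in CD44-/- AMs. Cdk4 was at 54.6 to 55.4 FPKM in CD44+/+ AMs and, by a narrow gap without overlap, at 55.6 to 57.1 FPKM in CD44-/- AMs, with a log2 fold change of 0.04.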
